A study of Mus musculus with 6 samples.

Results

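Interferon-stimulated genes outside the OAS family were followed in splenic CD4+ T cell libraries of lean and obese mice. The set was a list of 48 gene symbols taken as annotated interferon targets. All 48 were found among the 22899 genes of each deposited table, and 45 reached 1 FPKM (fragment counts scaled by transcript length and library size) in at least 3 of the 6 libraries. Mx1, Mx2 and Ifi44 did not reach that level and were left out of the main test.

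Interferons are cytokines that bind paired receptor chains on the cell surface. The kinases JAK1, JAK2 and TYK2 then activate transcription factors; type I interferons act through a complex with STAT2 and IRF9 that binds the interferon-stimulated response element (ISRE), and interferon gamma acts on the gamma-activated site (GAS). The targets restrict viruses and intracellular microbes. T cells carry these receptors, and many of the targets are transcribed at a basal level in resting lymphocytes.

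The mice were C57BL/6 and received either a normal diet (the lean group, 3 libraries) or high-fat chow in which fat gave 60% of the calories (the obese group, 3 libraries). Feeding started at an age of 6 to 8 weeks and lasted up to 4 months, per the labels' protocols, and splenic CD4+ T cells, the helper lineage, were sorted by flow cytometry. The labels name no genetic change, no infection and no interferon treatment in either group. They also leave unstated whether each library stands for 1 mouse or a pool, so p-values describe the spread between these libraries, which may be technical.

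Libraries are named lean 1 to lean 3 and obese 1 to obese 3. Their summed FPKM lay between 595106 and 656303, and read depth is unknown because only FPKM values were used. All 12 T cell markers were expressed, with a summed level of 3562 to 3953 FPKM in lean and 3153 to 3799 FPKM in obese libraries, and none passed the test. Transcripts of other cells were present in every library, with no marker of any of the 10 lists at 0 in all 6. The 17 macrophage markers all rose, from a summed 797.9 to 878.2 FPKM in lean to 1877 to 2065 FPKM in obese libraries. The 9 erythroid markers found also all rose, from a summed 173.9 to 474.3 FPKM in lean libraries to 29020.3, 4354 and 23492 FPKM in obese 1, obese 2 and obese 3. Of 11 neutrophil markers 6 fell, of 8 NK cell markers 3 fell, and of 5 plasma cell markers 1 rose. No B cell, CD8 T cell, plasmacytoid or conventional dendritic cell marker passed. In bulk RNA, fewer cells of a type and less RNA per cell cannot be told apart.

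Promoter windows are shown for members whose groups stood apart, 4 that rose and 2 with lower values in every obese library, because ISRE and GAS cores are the sequences through which interferon acts. Windows of 300 bases (250 before and 50 after an annotated transcript start) came from RefSeq, build GRCm38.p6, which held them for 34 of the 48 members. Capitals mark matches to the ISRE core GAAANNGAAA on either strand and to the GAS core TTCNNNGAA, which reads alike on both strands. Each is given on the strand of its gene, and positions count from the start site. The windows are Rsad2 chr12:26456403-26456702 (minus strand), Ifitm3 chr7:141010695-141010994 (minus), Eif2ak2 chr17:78882523-78882822 (minus), Slfn5 chr11:82951852-82952151 (plus), Irf1 chr11:53769764-53770063 (plus) and Igtp chr11:58199306-58199605 (plus).
Rsad2: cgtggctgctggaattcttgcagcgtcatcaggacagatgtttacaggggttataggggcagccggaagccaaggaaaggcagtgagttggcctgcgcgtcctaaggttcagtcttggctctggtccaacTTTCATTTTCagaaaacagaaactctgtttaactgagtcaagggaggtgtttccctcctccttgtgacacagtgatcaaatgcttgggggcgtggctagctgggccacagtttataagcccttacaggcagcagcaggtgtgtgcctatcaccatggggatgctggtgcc
Ifitm3: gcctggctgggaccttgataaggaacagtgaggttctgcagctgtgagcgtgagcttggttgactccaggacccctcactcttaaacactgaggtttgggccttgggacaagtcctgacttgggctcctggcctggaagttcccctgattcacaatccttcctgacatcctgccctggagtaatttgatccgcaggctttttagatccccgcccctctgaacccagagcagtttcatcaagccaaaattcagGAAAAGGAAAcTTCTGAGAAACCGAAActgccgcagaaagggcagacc
Eif2ak2: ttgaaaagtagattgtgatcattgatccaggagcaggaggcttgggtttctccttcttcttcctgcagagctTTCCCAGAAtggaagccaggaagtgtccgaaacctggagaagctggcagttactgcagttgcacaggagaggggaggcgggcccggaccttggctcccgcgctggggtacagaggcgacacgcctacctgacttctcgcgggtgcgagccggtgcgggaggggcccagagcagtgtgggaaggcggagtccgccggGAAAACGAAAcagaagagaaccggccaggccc
Slfn5: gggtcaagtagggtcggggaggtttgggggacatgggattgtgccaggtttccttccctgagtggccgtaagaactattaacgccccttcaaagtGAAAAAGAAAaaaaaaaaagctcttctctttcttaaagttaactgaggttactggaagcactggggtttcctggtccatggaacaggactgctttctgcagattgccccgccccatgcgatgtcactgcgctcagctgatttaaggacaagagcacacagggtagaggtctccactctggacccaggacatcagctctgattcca
Irf1: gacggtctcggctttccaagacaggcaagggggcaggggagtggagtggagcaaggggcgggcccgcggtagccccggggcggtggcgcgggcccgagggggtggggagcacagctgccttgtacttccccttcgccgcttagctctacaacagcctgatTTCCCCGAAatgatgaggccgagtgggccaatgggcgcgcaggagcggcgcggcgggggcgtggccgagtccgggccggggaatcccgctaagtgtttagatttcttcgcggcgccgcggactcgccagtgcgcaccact
Igtp: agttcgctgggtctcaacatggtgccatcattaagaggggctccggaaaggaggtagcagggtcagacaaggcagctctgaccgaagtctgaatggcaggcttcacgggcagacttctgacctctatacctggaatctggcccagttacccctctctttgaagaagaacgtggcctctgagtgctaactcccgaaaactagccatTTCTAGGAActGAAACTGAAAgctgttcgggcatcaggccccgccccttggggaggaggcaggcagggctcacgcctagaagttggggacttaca

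Rsad2 held 1 ISRE core, in reverse orientation from position -120 to -111. In Ifitm3, 2 ISRE cores lay just past the start site, from 3 to 12 and from 20 to 29, and a GAS core from 14 to 22 overlapped the second of them. Eif2ak2 had an ISRE core from 19 to 28 and a GAS core from -178 to -170. Slfn5 had an ISRE core from -155 to -146 at the head of a run of adenines. Irf1 held no ISRE core and 1 GAS core, from -90 to -82. Igtp held a GAS core from -45 to -37 with an ISRE core close behind it, from -34 to -25. Over the 34 members, 61.8% had an ISRE core in a window and 29.4% a GAS core, against 3.99% and 9.55% of the 27025 genes with a window. ISRE cores were found in 9 of 11 members that were higher in every obese library, in 2 of 5 that were lower in every obese library and in 10 of 17 whose groups overlapped. GAS cores were found in 5 of 11, 3 of 5 and 2 of 17 of the same members. Ifi44, left out of the main test, had neither core. These are matches of letters, and binding was not measured.

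Setting obese beside lean libraries compares transcripts of the sorted splenic CD4+ T cells between the diets. Transcripts of other cells were present too, and macrophage and erythroid markers rose. Which cells a difference arose in was not tested. Among the 45 tested members, 5 rose in the obese libraries (limma, Benjamini-Hochberg (BH) adjusted p under 0.05): Rsad2, Ifi204, Ifitm3, Eif2ak2 and Slfn5. That is 11.1% of the members, beside 5.77% of all 10788 tested genes called higher. None fell, beside 0.519% of all tested genes called lower. At an unadjusted p under 0.05 in limma, 21 members were higher and 4 (Irf1, Bst2, Ifi47 and Igtp) lower, beside 2359 higher and 433 lower of the 10788 genes. After median-of-ratios scaling Irf1, Bst2 and Igtp passed as lower and 2 members, Ifi204 and Rsad2, as higher. In that fit 1.60% of all tested genes were called lower, against 0.519% without it, and 4.02% higher. The genes that rose are a virus-inhibiting enzyme, a DNA sensor, a membrane protein that blocks virus entry, an RNA-activated kinase and a Schlafen protein. Isg15, Ifit1, Ifit3 and Irf7 did not pass. Nor did Ifit2, Usp18 and Isg20, which were higher in every obese library. With 3 libraries per group, not passing does not show that a gene was unchanged.

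Most members did not pass, and their differences were small. The log2 differences, which are obese minus lean values of log2(FPKM + 1), ran from -0.37 for Ifitm1 to 2.66 for Rsad2, with a median of 0.23 against 0.10 over all tested genes. Rsad2 passed the filter only through the obese libraries, so counts over the tested members are descriptions. Values in every obese library lay above every lean library for 18 members, 40% of those tested beside 25.4% of all tested genes. They lay below for 5, 11.1% beside 6.15%. Scaling moved all genes together: the median of all tested genes was -0.03 after both median-of-ratios scaling and quantile normalization, 0.17 as TPM and 0.20 after leaving out immunoglobulin, haemoglobin and mitochondrial genes. Relative to that median, the members' median stood at 0.13 in the FPKM values and at 0.12 to 0.14 under those 4 scalings. Of all called genes 91.7% were higher in obese libraries, but 71.5% after median-of-ratios scaling and 74.2% after quantile normalization. The sign of the difference was the same under FPKM and all 4 scalings for 31 members, of which 25 were positive and 6 (Irf1, Irf7, Ifi47, Igtp, Bst2 and Ifitm1) negative.

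**Figure D1:**
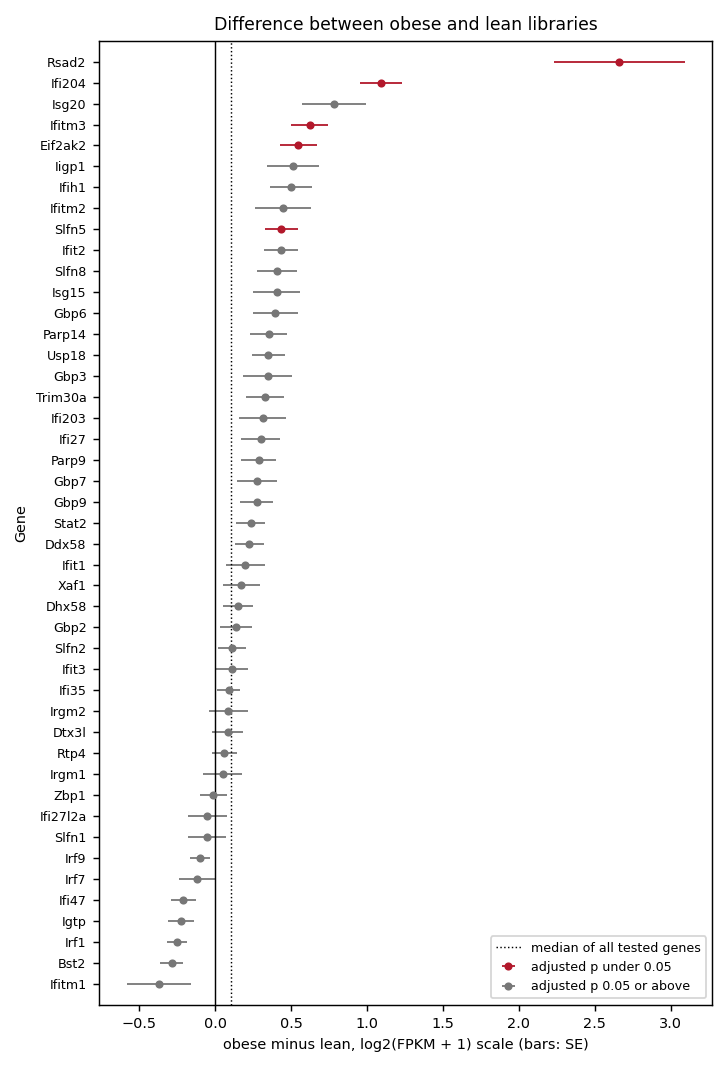
Difference between obese and lean libraries for the 45 tested members (horizontal axis, log2(FPKM + 1) scale; points are limma estimates and bars are SE), sorted by size, with the median of all tested genes dotted at 0.10. The 5 genes in red passed the test, with Rsad2 at 2.66 and Ifi204 at 1.09; the sign of the estimate changed under at least 1 of 4 scalings for 14 of the members.

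**Figure D2:**
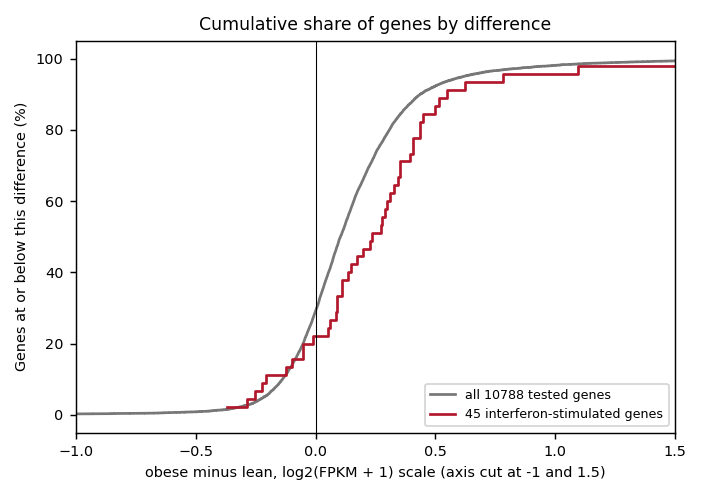
Cumulative share of genes (vertical axis, percent) by difference between obese and lean libraries (horizontal axis, log2(FPKM + 1) scale) for the 45 members and for all 10788 tested genes. The members' curve lies to the right of that of all genes over most of the range, with medians of 0.23 and 0.10 in the FPKM values; the axis ends at -1 and 1.5 and so leaves out Rsad2.

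Ligands came first along the pathway. Ifng, the interferon that T and NK cells secrete, stood at 11.28, 8.39 and 8.62 FPKM in lean 1 to lean 3 and at 6.65, 5.65 and 9.67 FPKM in obese 1 to obese 3. The groups overlapped and the log2 difference of -0.34 did not pass (limma, BH-adjusted p = 0.267). Ifnb1, Ifna1, Ifna2, Ifna4, Ifne and Ifnl2 were listed at 0 in all 6 libraries, and Ifnl3 in all but obese 3, where it was at 0.15 FPKM.

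Of 6 receptor chains and 3 kinases none passed; Ifnlr1, of the interferon lambda receptor, was under the filter at 0.06 to 0.19 FPKM and was not tested. Ifnar2, a chain of the type I receptor, was at 51.08, 47.43 and 49.31 FPKM in lean and 60.09, 55.94 and 60.03 FPKM in obese libraries, without overlap (log2 difference 0.25; limma, BH-adjusted p = 0.0765). Its partner Ifnar1 overlapped between the groups, at 27.75 to 29.46 FPKM in lean and 27.82 to 30.27 FPKM in obese libraries. For the interferon gamma receptor, Ifngr1 lay between 96.65 and 142.65 FPKM over the 6 libraries, and Ifngr2 between 31.28 and 32.81 FPKM in lean and between 33.31 and 36.26 FPKM in obese libraries, apart but not called (log2 difference 0.11; limma, BH-adjusted p = 0.342). Il10rb, a chain that the interferon lambda receptor shares with that of interleukin-10, was at 48.35 to 49.3 FPKM in lean and 55.63 to 60.43 FPKM in obese libraries (log2 difference 0.22; limma, BH-adjusted p = 0.0919). Jak1, which serves both the type I and the gamma receptor, overlapped at 97.51 to 137.15 FPKM. Jak2, of the gamma receptor, had the largest difference of the kinases: it was at 13.08, 12.12 and 16.7 FPKM in lean and 17.92, 18.48 and 24.76 FPKM in obese libraries, apart but not called (log2 difference 0.51; limma, BH-adjusted p = 0.0822). Tyk2, of the type I receptor, was at 20.99 to 23.7 FPKM in lean and 25.23 to 27.73 FPKM in obese libraries (log2 difference 0.22; limma, BH-adjusted p = 0.143).

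Over the whole pathway list of 45 further genes, 36 were tested, 3 rose (8.33%, beside 5.77% of all tested genes) and none fell. At an unadjusted p under 0.05 limma gave 14 higher and 1 lower, beside 2359 and 433 of all 10788 tested genes. After median-of-ratios scaling 1 of the 36 passed, beside 4.02% of all tested genes called higher and 1.60% called lower. The called genes were Tlr7, Unc93b1 and Ptpn11. Tlr7, an endosomal receptor for single-stranded RNA, rose from 2.14, 2.1 and 2.58 FPKM in lean to 5.58, 4.88 and 7.08 FPKM in obese libraries (log2 difference 1.06 ± 0.14, SE; limma, BH-adjusted p = 0.00334). Unc93b1, the chaperone that carries endosomal Toll-like receptors, rose from 55.06, 71.67 and 45.89 to 88.94, 90.44 and 105.87 FPKM (log2 difference 0.73; limma, BH-adjusted p = 0.0246). B cells, dendritic cells and macrophages express both. Ptpn11, a phosphatase that dampens JAK signalling, rose from 20.97, 19.47 and 20.94 to 26.65, 24.88 and 25.63 FPKM (log2 difference 0.32; limma, BH-adjusted p = 0.0477). The macrophage markers summed to at most 878.2 FPKM in lean and at least 1877 FPKM in obese libraries. B cell markers summed to 378.1 to 814.5 FPKM in lean and 548.3 to 1029.2 FPKM in obese libraries. For conventional dendritic cells the sums were 26.4 to 30.1 and 25.7 to 37.1 FPKM, and for plasmacytoid ones 25.9 to 32.7 and 28.3 to 29.0 FPKM. The part of these cells in these results was not tested. Without obese 3 only 1 of the pathway genes passed, beside 3.87% of all tested genes called higher and 0.426% lower. Without lean 3 there were 5, beside 5.57% of all tested genes called higher and 0.899% lower.

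Transcription factors of the response are themselves among the members. Irf1, an early interferon gamma target that activates other targets, stood at 147.87, 143.82 and 156.21 FPKM in lean and at 126.49, 126.74 and 122.08 FPKM in obese libraries. Every obese library lay below every lean one, at a log2 difference of -0.25 with an SE of 0.07 (limma, BH-adjusted p = 0.0615), and after median-of-ratios scaling it passed at -0.40 (limma, BH-adjusted p = 0.0248). Irf9, the DNA-binding partner of STAT2, was at 72.88, 72.47 and 71.38 FPKM in lean and at 68.45, 68.73 and 65.2 FPKM in obese libraries. These groups were also apart, but the log2 difference was -0.10 (limma, BH-adjusted p = 0.365) and turned positive after leaving out immunoglobulin, haemoglobin and mitochondrial genes. Stat2 lay the other way, at 13.27, 11.62 and 13.66 FPKM in lean and 14.25, 15.85 and 15.72 FPKM in obese libraries (log2 difference 0.23; limma, BH-adjusted p = 0.167). Irf7, the amplifier of type I interferon production, overlapped, at 64.45, 61.29 and 51.4 against 61.69, 54 and 47.05 FPKM. So of the 4 factors none passed, and 3 had negative differences.

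Rsad2 (viperin, an enzyme that makes a chain-terminating nucleotide and inhibits virus replication; gene 58185, chromosome 12, 26442743 to 26456452, GRCm38) changed most. It stood at 1.02, 0.69 and 0.99 FPKM in lean and at 15.41, 4.18 and 19.25 FPKM in obese libraries. All obese libraries lay above all lean ones, and obese 2 lay far below obese 1 and obese 3. The means were 0.900 ± 0.183 and 12.9 ± 7.83 FPKM (SD, n = 3 each); in log2 terms the difference was 2.66 with an SE of 0.43 (limma, BH-adjusted p = 0.00908). It passed in each of the 6 fits that left out 1 library (limma, BH-adjusted p up to 0.0435), and in every alternative that tested it other than the one without a filter (0.0501). Rsad2 met the filter only through the obese libraries, where it was high. That filter was set once on all 6 libraries, so the fits that left out 1 keep this choice and are not independent support.

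Isg20 and Isg15 were, like Rsad2, lowest in obese 2 among the obese libraries. So were Ifi204, Eif2ak2, Ifit1, Iigp1, Gbp6, Irgm1 and Ifitm1, while the other tested members had their lowest obese value elsewhere. Isg20, an interferon-induced RNA exonuclease, was at 33.42, 26.75 and 21.49 FPKM in lean and at 55.08, 33.52 and 55.6 FPKM in obese libraries. The groups were just apart, with obese 2 at the level of lean 1, and the log2 difference of 0.78 ± 0.21 (SE) did not pass (limma, BH-adjusted p = 0.0643). Isg15, a ubiquitin-like modifier that is conjugated to other proteins, was at 23.05, 23.31 and 22.68 FPKM in lean and at 37.34, 23.23 and 33.64 FPKM in obese libraries. Here obese 2 lay within the lean range, and the log2 difference of 0.41 did not pass (limma, BH-adjusted p = 0.143). Without obese 2 both passed, with 1.02 for Isg20 (limma, BH-adjusted p = 0.00843) and 0.60 for Isg15 (0.00965). Erythroid markers were also lower in obese 2 than in the other obese libraries: Slc4a1, the red cell anion exchanger, stood at 0.35, 1.1 and 0.98 FPKM in lean and at 107.95, 19.77 and 138.35 FPKM in obese libraries. All 9 erythroid markers had lowest obese values in obese 2, and their part in the levels of the members was not tested. Usp18, the protease that removes ISG15 and silences the type I receptor, was highest in obese 2, with 13.34, 11.9 and 10.3 FPKM in lean and 15.63, 16.02 and 14.3 FPKM in obese libraries (log2 difference 0.35; limma, BH-adjusted p = 0.0914).

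**Figure D3:**
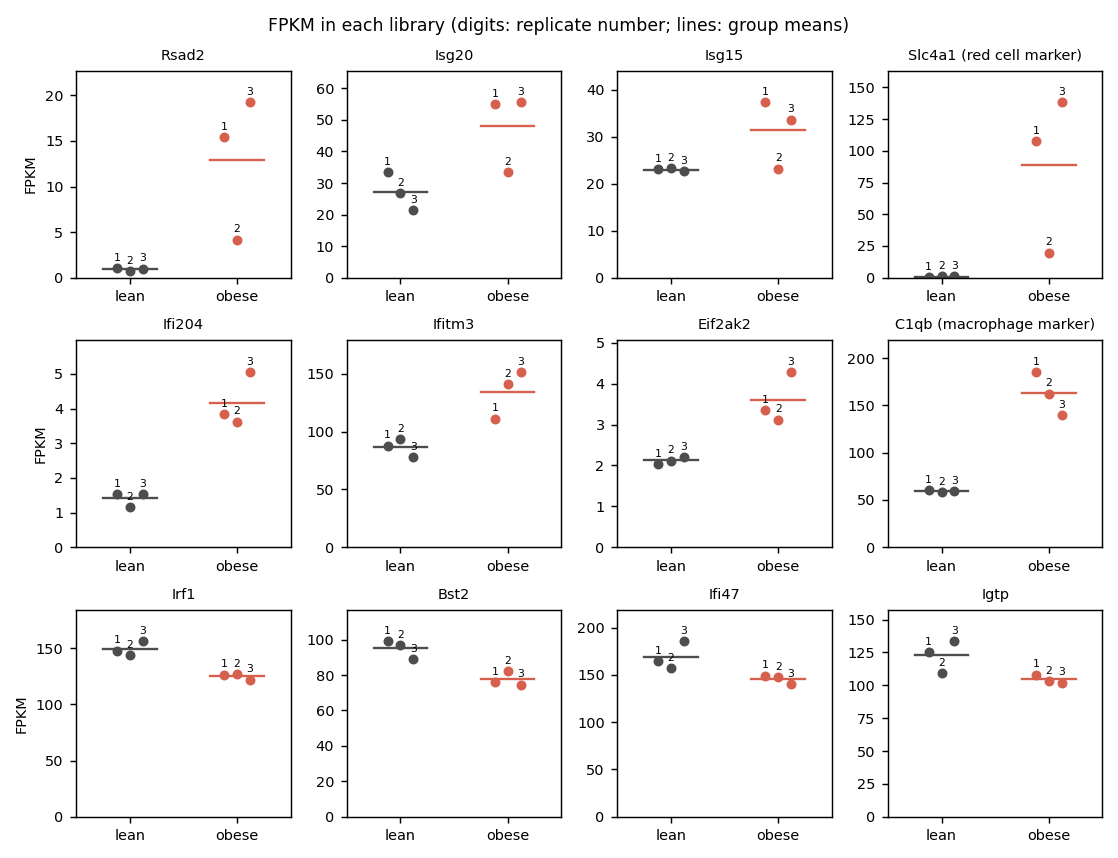
FPKM (vertical axes, linear from 0) in each lean and obese library for 10 members and 2 markers, with lines at the group means (n = 3 each) and digits for the replicate number. In the top row obese 2 lies lowest of the obese libraries for Rsad2, Isg20, Isg15 and the red cell marker Slc4a1. In the middle row Ifi204, Ifitm3 and Eif2ak2 lie higher in all obese libraries, as does the macrophage marker C1qb. Ifi204 and Eif2ak2 also have their lowest obese value in obese 2. In the bottom row Irf1, Bst2, Ifi47 and Igtp lie lower in all obese libraries.

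Nucleic acid sensors were positive or near 0, and 1 of 5 passed. Eif2ak2 (PKR, the kinase that halts translation on double-stranded RNA; gene 19106, chromosome 17, 78850504 to 78882572, GRCm38) rose from 2.04, 2.12 and 2.21 to 3.36, 3.12 and 4.29 FPKM. Its log2 difference was 0.55, with an SE of 0.12 (limma, BH-adjusted p = 0.0371), and passed in only 1 of the 6 fits that left out a library, the one without obese 2 (BH-adjusted p up to 0.115 in the others). It did not pass after median-of-ratios scaling (0.0568) or quantile normalization (0.156). Ifih1 (MDA5), a cytosolic sensor of long double-stranded RNA, was at 3.48, 2.43 and 3.56 FPKM in lean and 4.35, 5.07 and 5.09 FPKM in obese libraries, apart but not called (log2 difference 0.50; limma, BH-adjusted p = 0.0695). Ddx58 (RIG-I), its counterpart for RNA with a triphosphate end, was at 19.65, 16.92 and 21.05 against 23.62, 22.31 and 21.69 FPKM, with a log2 difference of 0.22. The regulator Dhx58 (LGP2) overlapped at 9.04 to 11.8 FPKM over the 6 libraries, and its difference was negative after quantile normalization. Zbp1, a sensor of Z-form nucleic acid and the most abundant of the group, was at 87.82, 79.05 and 79.91 FPKM in lean and 90.77, 79.8 and 74.73 FPKM in obese libraries. Its log2 difference was -0.01, and it turned positive under TPM and after leaving out immunoglobulin, haemoglobin and mitochondrial genes.

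The PYHIN genes on chromosome 1 recognise DNA or regulate its sensing. Ifi204, a DNA sensor best known from macrophages (gene 15951, chromosome 1, 173747293 to 173767069, GRCm38), rose from 1.54, 1.16 and 1.54 FPKM in lean to 3.84, 3.62 and 5.06 FPKM in obese libraries. Its means were 1.41 ± 0.219 and 4.17 ± 0.776 FPKM (SD, n = 3 each), a ratio of 2.95, and the log2 difference was 1.09 with an SE of 0.14 (limma, BH-adjusted p = 0.00269). It passed in all 16 alternatives in which it was tested, with BH-adjusted p up to 0.0186. Ifi203, in the same cluster, was more abundant, with 27.69, 23.31 and 34.25 FPKM in lean and 30.6, 33.89 and 41.66 FPKM in obese libraries. Its groups overlapped and it did not pass (log2 difference 0.31; limma, BH-adjusted p = 0.233). Genes of this family are close in sequence, so reads may be shared between them and single values are uncertain.

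Membrane restriction factors split. Ifitm3 (a membrane protein that traps incoming viruses in endosomes; gene 66141, chromosome 7, 141009590 to 141010744, GRCm38) rose from 87.78, 93.64 and 78.1 to 111.17, 140.7 and 151.7 FPKM. Its means were 86.5 ± 7.85 and 134.5 ± 21.0 FPKM (SD, n = 3 each), a ratio of 1.55, and the log2 difference was 0.62 with an SE of 0.12 (limma, BH-adjusted p = 0.0211). The call was lost without lean 1 (0.0670), without lean 3 (0.0525) and without obese 2 (0.0534), and median-of-ratios scaling ended it too (0.0523). Ifitm2, its close paralog, was at 78.28, 72.59 and 57.58 FPKM in lean and 72.05, 94.88 and 123.08 FPKM in obese libraries; the groups overlapped through obese 1 (log2 difference 0.45; limma, BH-adjusted p = 0.171). Ifitm1, between them on chromosome 7, had the lowest estimate of all members, yet its groups overlapped: 43.94, 25.11 and 26.16 FPKM in lean and 23.16, 19.65 and 28.64 FPKM in obese libraries. The log2 difference of -0.37 did not pass (limma, BH-adjusted p = 0.296), and it was -0.12 without lean 1. Bst2 (tetherin, which holds budding virus at the cell surface) was lower in every obese library, with 99.06, 96.97 and 88.97 FPKM in lean and 75.98, 82.29 and 74.62 FPKM in obese libraries. The log2 difference of -0.29 ± 0.08 (SE) did not pass (limma, BH-adjusted p = 0.0601), but it did after median-of-ratios scaling (-0.44; 0.0279) and without lean 3 (-0.33; 0.0416). Plasmacytoid dendritic cells express Bst2 strongly. Their 5 markers summed to 25.9 to 32.7 FPKM in lean and 28.3 to 29.0 FPKM in obese libraries, and none passed. Pacsin1 alone lay between 17.63 and 23.75 FPKM over the 6 libraries. Pacsin1, Klk1, Siglech and Ccr9 had lower means in obese libraries, and Cox6a2 a higher one. The part of these cells in the Bst2 level was not tested.

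Macrophage markers were higher in every obese library, as were Ifi204, Ifitm3 and Eif2ak2. C1qb, a complement subunit made by macrophages, stood at 60.36, 58.05 and 58.96 FPKM in lean and at 185.59, 162.43 and 139.85 FPKM in obese libraries. All 17 markers of the list rose and none was at 0 in lean libraries. Within the obese group every marker of the list except Cd68 and Lyz2 was highest in obese 1. Ifi204, Ifitm3 and Eif2ak2 were highest in obese 3, where C1qb was lowest. Cd68 was highest in obese 2, at 84.32, 90.7 and 89.46 FPKM in obese 1 to obese 3. The macrophage lysozyme Lyz2 was highest in obese 3, at 652.56, 649.87 and 901.61 FPKM in obese 1 to obese 3. The part of these cells in the members' levels was not tested.

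Interferon gamma is the main inducer of the immunity-related GTPases (IRG), which attack the vacuoles of intracellular microbes, and here the abundant members lay lower in obese libraries. Ifi47 stood at 164.78, 157.16 and 185.63 FPKM in lean and at 149.28, 147.72 and 140.69 FPKM in obese libraries. Igtp (Irgm3) stood at 125.51, 109.04 and 133.46 against 108.14, 103.44 and 102.03 FPKM. Neither pair of groups overlapped, although lean 2 came within 1 FPKM of obese 1 for Igtp. The log2 differences were -0.21 and -0.22 (limma, BH-adjusted p = 0.149 and 0.150), and Igtp passed after median-of-ratios scaling (-0.37; 0.0493). Iigp1 (Irga6), an effector of the family, went the other way at a far lower level, with 8.1, 4.97 and 5.35 FPKM in lean and 8.44, 8.16 and 10.61 FPKM in obese libraries (log2 difference 0.51; limma, BH-adjusted p = 0.111), and passed without lean 1 (0.70; 0.0464). The regulators Irgm1 and Irgm2 overlapped, at 35.57 to 51.65 and 18.62 to 26.95 FPKM over the 6 libraries, and both differences turned negative after median-of-ratios scaling. Igtp and Irgm2 are neighbours on chromosome 11, 7385 bases apart.

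Guanylate-binding proteins (GBP), the larger relatives of these GTPases, were all positive in the FPKM values, though Gbp2 turned negative after median-of-ratios scaling, and none of the 5 passed. Gbp6 had the largest difference, with 9.75, 6.67 and 9.18 FPKM in lean and 10.65, 10.51 and 13.24 FPKM in obese libraries (log2 difference 0.40; limma, BH-adjusted p = 0.142). Gbp9 was at 12.55, 10.86 and 14.24 against 14.78, 14.94 and 16.22 FPKM, and Gbp7 at 6.12, 5.21 and 5.89 against 6.14, 6.8 and 8.7 FPKM. These 3 had groups apart, for Gbp7 by 0.02 FPKM only. Gbp2, the most abundant, overlapped at 35.24, 28.49 and 35.9 against 36.33, 38.98 and 34.13 FPKM. Gbp3 overlapped too, at 4.83 to 7.67 FPKM in lean and 7.36 to 9.71 FPKM in obese libraries. For each of the 5, lean 2 was the lowest library.

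Schlafen genes, a cluster on chromosome 11 with roles in lymphocyte quiescence and virus restriction, separated by abundance. Slfn2, which keeps T cells quiescent, was the second most abundant member, with 289.34, 274.74 and 305.85 FPKM in lean and 344.93, 314.73 and 282.39 FPKM in obese libraries. Slfn1 was at 131.58, 104.17 and 119.27 against 123.38, 124.56 and 94.9 FPKM. Both overlapped, and the sign of both differences changed with scaling. The scarcer Slfn5, a nuclear member of the family (gene 327978, chromosome 11, 82951349 to 82964850, GRCm38), rose from 9.16, 7.9 and 9.55 to 11.2, 12.45 and 13.4 FPKM (log2 difference 0.44 ± 0.11, SE; limma, BH-adjusted p = 0.0498). This call was at the threshold: it passed only without lean 3 among the fits that left out 1 library (BH-adjusted p up to 0.152 in the others), and not after median-of-ratios scaling (0.0982), quantile normalization (0.135) or as TPM (0.0539). Slfn8 had a similar difference, 0.41, with 13.31, 9.79 and 12.97 FPKM in lean and 14.36, 16.47 and 17.71 FPKM in obese libraries (limma, BH-adjusted p = 0.101).

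The IFIT genes, neighbours on chromosome 19 whose products bind foreign RNA ends and block its translation, did not pass. Ifit2 stood apart, with 4.8, 4.26 and 5.72 FPKM in lean and 7.01, 6.96 and 6.93 FPKM in obese libraries. Its log2 difference was 0.43 ± 0.11 (SE; limma, BH-adjusted p = 0.0611), and it passed without lean 3 (0.53; 0.0330). Ifit3, the most abundant, was at 10.77, 9.29 and 9.38 against 11.26, 11.15 and 9.62 FPKM, and Ifit1 at 3.24, 2.32 and 3.09 against 3.58, 3.13 and 3.61 FPKM. Both overlapped, Ifit3 changed sign after median-of-ratios scaling and quantile normalization, and Ifit1 after quantile normalization. The near-identical copy Ifit3b, at 0.96 to 2.9 FPKM, may share reads with Ifit3.

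The PARP9 and DTX3L complex, which modifies histones, and the related PARP14 had differences from 0.08 to 0.35, and none passed. Parp14 was at 10.6, 9.36 and 13.34 FPKM in lean and 14.04, 14.33 and 14.54 FPKM in obese libraries, with obese libraries closely grouped above the lean ones (limma, BH-adjusted p = 0.122), and it passed without lean 3 (0.48; 0.0317). Parp9 stood apart as well, with 16.51, 12.98 and 17.41 against 18.06, 19.74 and 19.75 FPKM. Dtx3l overlapped, at 23.23, 19.63 and 25.32 against 23.35, 24.73 and 23.96 FPKM, and changed sign after median-of-ratios scaling and quantile normalization. The annotated spans of Dtx3l and Parp9 overlap head to head on chromosome 16.

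Among the remaining members, Ifi27l2a was the most abundant, in the top 2% of tested genes, with 367.95, 385.72 and 314.65 FPKM in lean and 364.13, 388.62 and 283.05 FPKM in obese libraries. Ifi27, a mitochondrial protein encoded within its span on chromosome 12, was at 59.66, 47.35 and 40.27 against 62.88, 58.51 and 58.27 FPKM. Both overlapped; since the strandedness of the libraries is unknown, reads of the 2 genes may not be told apart. Trim30a, a ubiquitin ligase, was at 17.21, 15.38 and 20.69 against 20.41, 21.75 and 25.26 FPKM (log2 difference 0.33; limma, BH-adjusted p = 0.143). Ifi35, at 46.37 to 46.87 FPKM in lean and 46.14 to 52.64 FPKM in obese libraries, Rtp4, at 20.62 to 23.98 FPKM over the 6, and Xaf1, at 15.61 to 22.34 FPKM over the 6, overlapped and did not pass. Ifi44, under the filter, was at 0.55, 0.38 and 0.74 FPKM in lean and 1.06, 1.19 and 0.96 FPKM in obese libraries, with the groups apart. It was tested only in the fit without that filter, where it did not pass (limma, BH-adjusted p = 0.0933). Mx1 and Mx2, GTPases that block influenza and other viruses, were listed at 0 in all 6 libraries. Both genes are disrupted in C57BL/6 mice, and RefSeq records them as transcribed pseudogenes in this strain's assembly; of 37 such genes found, 27 were listed at 0 throughout.

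**Figure D4:**
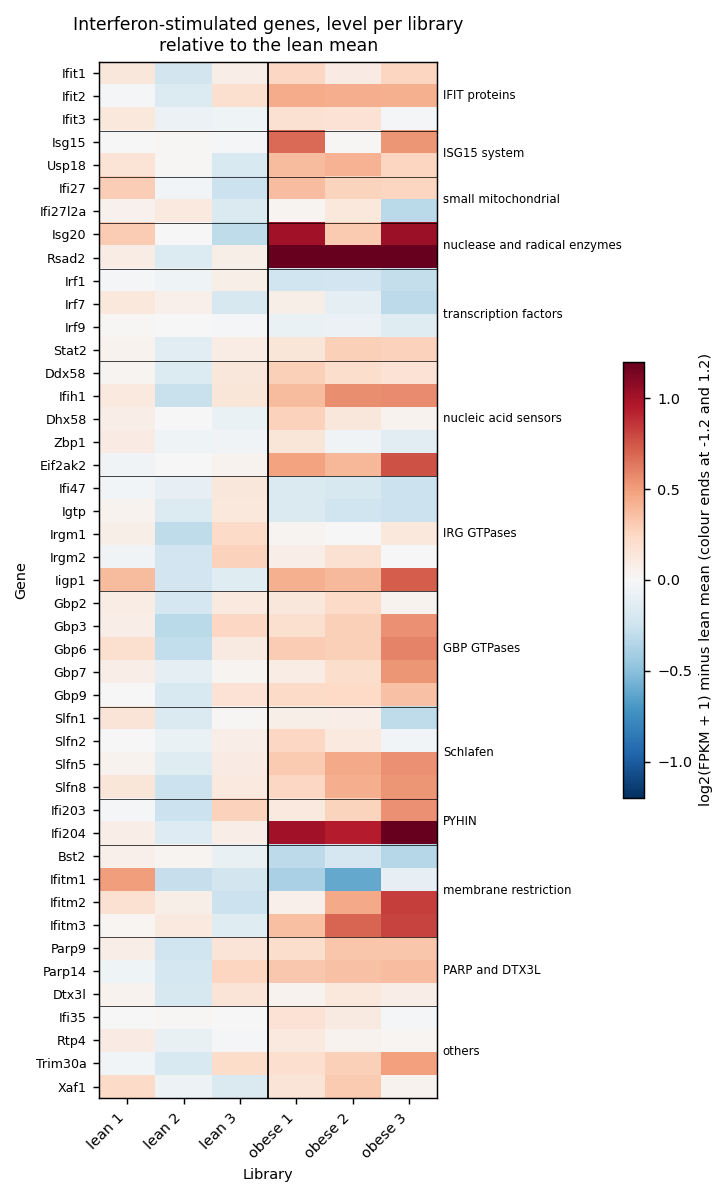
Level of each of the 45 tested members (rows, grouped by role) in each library (columns), as log2(FPKM + 1) minus the mean of the 3 lean libraries, with red above and blue below it and values past either end of the colour scale drawn in its end colour. Rsad2, Isg20 and Ifi204 stand out in obese libraries, lean 2 is mostly blue, and Irf1, Ifi47, Igtp and Bst2 are blue in all 3 obese libraries.

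Libraries of 1 group differed among themselves across the members. Lean 2 held the lowest value of 25 of the 45 tested members, and obese 3 held the highest of 19 and the lowest of 10. The members' mean log2(FPKM + 1) was 4.64, 4.43 and 4.58 in lean and 4.82, 4.78 and 4.87 in obese libraries, so the groups did not overlap, and lean 2 stood lowest. All genes together had the same pattern: their median-of-ratios factors were 0.966, 0.918 and 0.966 in lean and 1.02, 1.04 and 1.10 in obese libraries. Without lean 2 the members' median difference fell from 0.23 to 0.17, beside 0.08 for all tested genes. Calls moved with single libraries: 5 members rose with all libraries, but 3 without lean 1, lean 2, obese 1 or obese 3. The share of all tested genes called higher fell too, from 5.77% to 2.80%, 2.77%, 4.10% and 3.87% in those fits. It was 5.57% without lean 3 and 4.79% without obese 2, where 5 members rose. Rsad2 and Ifi204 were the members that passed in all 6 fits that left out 1 library. For Rsad2 this carries the limit of the filter given above.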

How the data were processed

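The 6 splenic CD4+ T cell RNA libraries were run on a HiSeq instrument, per the labels' protocols. The authors deposited 1 table of FPKM values per library, with a gene number and symbol for 22899 genes. Per the submitters' processing notes, the tools were Bowtie and RSEM (no version listed) and the builds mm10 and GRCm38. The sources used here do not give strandedness, annotation release or filters. Low FPKM values of genes with 1 transcript showed no whole-read steps (score 0.127 to 0.253, where 1 is the maximum), so depth is unknown and the spread between libraries is the only error available.

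Groups follow the titles in the labels. Values were taken as log2(FPKM + 1), and the 10788 genes that reached 1 FPKM in 3 or more libraries entered a limma fit (version 3.58.1, R 4.3.3; lmFit, eBayes with an intensity trend, group as the sole term, 2-sided). P-values were adjusted over all of them by the Benjamini-Hochberg method. Genes under 0.05 were called; SE is that of limma. Log2 differences understate changes of low genes. The test was checked on simulated data with independent noise and no shift common to all genes, so the check does not cover such shifts. All 48 members matched RefSeq by gene number (GRCm38.p6), the source of coordinates and promoters.

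The members, lists and tests were chosen with earlier results of these data known. Per-library values are given for called members, members whose groups do not overlap, and the smallest p and highest mean of each role group; the promoters shown were chosen after values were seen. Alternatives were other pseudocounts (0.1 and 0.5), filters, scalings (median-of-ratios, quantile, TPM, without immunoglobulin, haemoglobin and mitochondrial genes), variance models, the replicate number as a block and each library left out. Of the pathway list, 1 gene is not reported here.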

Additional observations from a re-analysis of the deposited data

How the results depend on the processing

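With all libraries 622 genes were called higher and 56 lower, among them 5 members higher and 0 lower, 3 pathway genes were called, and the members' median log2 difference was 0.23. Testing every gene above 0 in at least 1 library gave 344 higher, 24 lower, 1 member higher and 1 pathway gene, and a filter of 5 FPKM gave 316, 36, 1 and 1; the former tests more genes and the latter leaves 40 members. After median-of-ratios scaling 173 genes and 3 members were lower, 2 members higher, 1 pathway gene was called and the members' median was 0.093. Quantile normalization gave 322 higher, 112 lower, 3 members higher and a members' median of 0.093. Scaling without immunoglobulin, haemoglobin and mitochondrial genes gave 940 higher, 8 members higher, 9 pathway genes and a median of 0.33. Library quality weights gave 2507 higher and 609 lower genes, 16 members higher and 5 lower, and 18 pathway genes; the cause was not tested.

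Leaving out 1 library at a time gave 299 to 601 higher and 19 to 97 lower genes, 3 to 5 members higher, 0 to 1 member lower and 1 to 5 pathway genes. The lowest counts of higher genes came without lean 1 (302) and lean 2 (299). Other pseudocounts, TPM and the fit without an intensity trend left all these counts within 1.5 times. With the replicate block 149 genes and 1 member (Bst2) were lower and 7 pathway genes were called; same-numbered libraries had correlations of deviations of 0.032, 0.061 and 0.19, so the numbers are not treated as pairs. No called result changed direction in these alternatives. Depth is unknown, so what it limits cannot be stated.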

Other observations

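Relatives of the listed genes, named here after their values were seen, included others that differed. Of 29 further genes of the Schlafen, PYHIN, TRIM30, GBP, IFIT, IFITM, IFI27 and IFI44 families, 17 were tested and 2 passed, both higher in obese libraries, beside 5.77% of all tested genes called higher. Ifi207, a PYHIN neighbour of Ifi204, rose from 1.28, 1.29 and 1.27 FPKM in lean to 3.18, 3.23 and 4.37 FPKM in obese libraries (log2 difference 1.0; limma, BH-adjusted p = 0.00274). Trim30d, of the Trim30a family, rose from 4.22, 4.18 and 4.9 to 6.21, 6.56 and 8.5 FPKM (log2 difference 0.57; limma, BH-adjusted p = 0.0405). Slfn14, a Schlafen endoribonuclease known from reticulocytes, was under the filter, at 0, 0.01 and 0.04 FPKM in lean and 2.72, 0.64 and 4.93 FPKM in obese libraries. Its obese libraries had the same order as those of Rsad2, Ifi204 and Eif2ak2, with obese 3 highest and obese 2 lowest. Isg20, Ifit1, Iigp1, Gbp6, Irgm1 and Ifitm1 had this order too, although none of them was called and the difference of Ifitm1 was negative. What lies behind this order was not tested.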
